A study of Homo sapiens with 6 samples.

Results

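The mRNAs of 10 genes that ERK signalling is known to switch on were followed across 6 RNA-seq libraries: the phosphatases DUSP4, DUSP5 and DUSP6, the inhibitors SPRY2, SPRY4, SPRED1 and SPRED2, and the PEA3 transcription factors ETV1, ETV4 and ETV5. They were taken by symbol from a table of 42540 gene rows, in which each of the 10 stood on 1 row. All libraries came from MiaPaCa2 cells, a human pancreatic ductal adenocarcinoma (PDAC) line. All cells also carried CasRx, a Cas13d enzyme that a guide RNA directs to cut transcripts, brought in with a transposon. The 3 control libraries came from cells with CasRx and no guide RNA. The 3 knockdown libraries came from cells that in addition carried a lentiviral guide against PPP2R1A, the scaffold of the phosphatase PP2A. They are a stable population made with 1 guide, so effects of the guide, its vector and its selection and those of the lower PPP2R1A cannot be told apart. The libraries are numbered 1 to 3 in each group, and the study calls them independent replicates made in the course of 3 weeks. The library names of a control and a knockdown library of the same number share a further number, 8, 15 and 22 in turn, so the number is taken as a shared time point.

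The kinases RAF, MEK and ERK are activated in turn, and active ERK induces genes that dampen the same cascade. DUSP4, DUSP5 and DUSP6 remove phosphate from ERK, whereas Sprouty and SPRED proteins act upstream, on the activation of RAS and RAF. The PEA3 factors are ETS-family transcription factors that carry the output to further genes, and PP2A acts on several kinases and scaffolds of the cascade.

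The libraries held between 28499214 and 45040033 counts assigned to genes. PPP2R1A stood at 590, 624 and 648 CPM (counts scaled to a common library size, with TMM normalization) in control 1, 2 and 3, and at 143, 143 and 545 CPM in the knockdown libraries of the same numbers. The library labelled knockdown 3 thus went against its label. The study describes a weaker knockdown at the last time point and left that sample out of its own comparison. Whether libraries were exchanged was not tested, and the groups are as labelled. Knockdown 1 and 2 were therefore compared with control 1 and 2, and number 3 was then set beside them. Control 3 also stood apart. Between 163 and 217 genes were at least 4-fold apart in knockdown 1 against knockdown 2, and in any pair drawn from the library labelled knockdown 3, control 1 and control 2. In the other 11 pairs of libraries there were 405 to 651. CDKN2A, which this line has lost, was at 0 in all libraries. The summed mesenchymal markers ranged from 7410 to 10700 CPM in the controls and from 3780 to 8600 CPM in the knockdown libraries, with 0 of 4 tested markers called. Of 4 tested epithelial markers, KRT8 and KRT18 rose and KRT19 fell in knockdown 1 and 2, and the sum ranged from 1390 to 4060 CPM in the controls and from 1370 to 9300 CPM in the knockdown libraries, while CDH1 and EPCAM were under 1 CPM. Both tested endothelial markers rose, with sums of 0 to 2.96 CPM in the controls and 3.68 to 60.7 CPM in the knockdown libraries, and PECAM1 and KDR were at 0. Blood markers summed to at most 5.54 CPM and fibroblast markers to at most 0.234 CPM. The part of these shifts in the results on the 10 genes was not tested.

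RefSeq promoters (GRCh38.p14), with 250 bases before and 50 after each start, matched 6 of the 10 genes, DUSP6, SPRY2, SPRY4, SPRED1, SPRED2 and ETV1, and not DUSP4, DUSP5, ETV4 and ETV5. Those of the changed genes among the 6 are shown, all 5′ to 3′ along the gene, ETV1 and DUSP6 from the minus strand and SPRED1 from the plus strand. ETV1 has several starts, and the one printed is that with a motif match, which is in capitals.
ETV1 chr7:13991376-13991675: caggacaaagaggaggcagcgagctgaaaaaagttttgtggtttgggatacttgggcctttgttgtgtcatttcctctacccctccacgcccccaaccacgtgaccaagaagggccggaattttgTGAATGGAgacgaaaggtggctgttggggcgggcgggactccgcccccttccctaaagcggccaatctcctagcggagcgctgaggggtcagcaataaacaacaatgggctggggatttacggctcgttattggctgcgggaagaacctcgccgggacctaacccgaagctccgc
DUSP6 chr12:89352452-89352751: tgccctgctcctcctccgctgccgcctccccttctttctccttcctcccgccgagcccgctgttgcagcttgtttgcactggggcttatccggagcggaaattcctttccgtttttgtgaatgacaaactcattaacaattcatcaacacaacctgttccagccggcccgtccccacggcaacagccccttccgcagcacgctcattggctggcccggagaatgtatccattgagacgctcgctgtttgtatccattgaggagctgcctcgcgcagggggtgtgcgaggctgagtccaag
SPRED1 chr15:38252586-38252885: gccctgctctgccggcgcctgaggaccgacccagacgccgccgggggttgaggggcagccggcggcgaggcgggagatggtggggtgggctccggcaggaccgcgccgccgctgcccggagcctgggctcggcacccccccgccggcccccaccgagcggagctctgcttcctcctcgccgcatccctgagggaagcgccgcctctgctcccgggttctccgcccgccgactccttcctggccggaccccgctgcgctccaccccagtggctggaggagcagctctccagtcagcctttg
The capitals mark TGAATGGA, a form of the octamer bound by CIC, a repressor that ERK signalling inactivates, beginning 125 bases before the start. Only this form and TGAATGAA were searched, so other forms of the octamer may stand unmarked in the printed windows. On either strand TGAATGGA was in 1.03% of 35116 promoter entries of the same length. The other form searched, TGAATGAA, was in 1.65% of them and in 0 of the 6 genes. These shares are per entry, and a gene with several entries, such as ETV1, has more chances of a match. The AP-1 site TGACTCA was in 4.95% of all promoters and in 1 of a pair of SPRED2 entries, and the ETS site CCGGAAGT was in 4.14% and in 0 of the 6 genes. GC content was 57.3% for the printed ETV1 window, 58.3% for DUSP6 and 76.3% for SPRED1, against a median of 58.7% over all promoters. These matches describe letters only and say nothing of binding.

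Per kilobase of annotated exons (CPM per kb), the 10 mRNAs covered a wide range in the controls. SPRY4 was at 53.4 ± 7.09 (SD, n = 3) and SPRY2 at 44.2 ± 7.90 (SD, n = 3) CPM per kb, and their ranges overlapped. ETV5 at 29.2, ETV4 at 22.2, SPRED2 at 13.5 and DUSP5 at 5.72 CPM per kb followed, without overlap between neighbours. SPRED1 at 2.96, DUSP6 at 2.77 and ETV1 at 1.53 CPM per kb came next, with DUSP6 overlapping both of the others. DUSP4 was the lowest at 0.140 ± 0.0808 (SD, n = 3) CPM per kb.

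**Figure D1:**
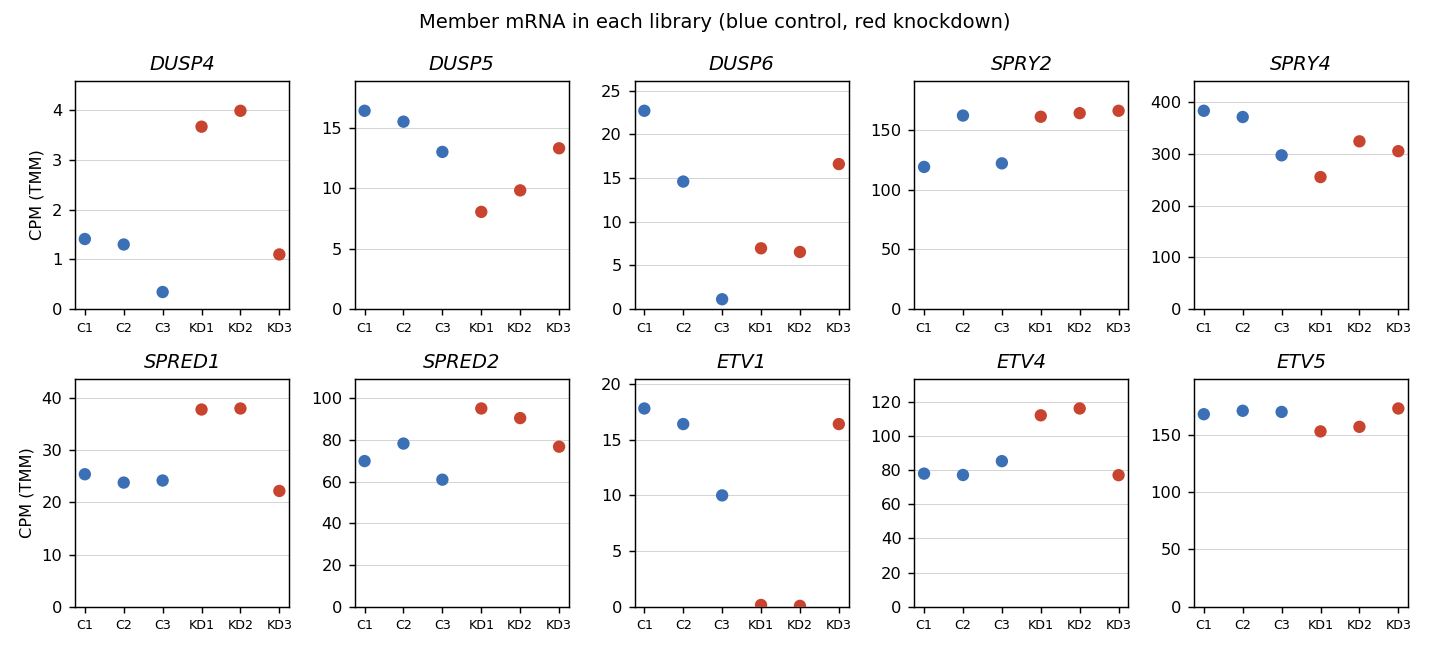
CPM with TMM normalization of the 10 genes in each library, on linear axes from 0, 1 point per library (blue control, red knockdown). ETV1 is under 0.2 CPM in knockdown 1 and 2 and at 16.4 CPM in the library labelled knockdown 3, and DUSP6 is lowest in control 3, at 1.13 CPM.

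Comparing knockdown 1 and 2 with control 1 and 2, 5 of the 10 genes changed: DUSP4, SPRED1 and ETV4 rose, and DUSP6 and ETV1 fell. The test was edgeR's quasi-likelihood test, with adjusted p under 0.05 over the 15596 genes tested. Of all genes tested, 13.6% changed, 7.15% upward and 6.41% downward, 1115 and 999 genes. Scaling by library size in place of TMM moved the median log2 fold change of all genes from 0.01 to 0.15 and that split to 1406 and 744. The median log2 fold change was 0.03 over the 10 genes and 0.01 over all genes, and the median size of change was 0.58 and 0.39. Without control 1, control 2, knockdown 1 or knockdown 2, edgeR called 0 of the 10 and 0 of all genes, with 6, 8, 5 and 7 of the 10 at an unadjusted p under 0.05, and 4797, 4483, 3377 and 3439 of all genes. With the number as a block, which pairs libraries of the same time point, edgeR called 0 of the 10 (6 at an unadjusted p under 0.05) and 0 of all genes (5162 at an unadjusted p under 0.05). The 5 genes kept their directions there, with adjusted p from 0.0630 for ETV1 to 0.0853 for SPRED1. The labels name no separate cultures, so the p-values take in no more than the library-to-library spread.

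Of the phosphatases, DUSP4, which acts on nuclear ERK, was low throughout. It had 40, 36 and 11 counts in control 1, 2 and 3, and 133, 187 and 47 counts in knockdown 1, 2 and 3. These are 1.41, 1.30 and 0.344 CPM in the controls and 3.67, 3.99 and 1.10 CPM in the knockdown libraries. Knockdown 1 and 2 were above all controls, and the library labelled knockdown 3 lay among the controls. Control 3 itself lay 3.93-fold below the mean of control 1 and 2, on 11 counts. The library labelled knockdown 3 was 3.2 times control 3, so DUSP4 was higher than its control at each number. DUSP4 rose 2.81-fold in knockdown 1 and 2 (log2 fold change 1.49, SE 0.206, edgeR adjusted p = 0.0313). The ratio of its counts was 2.85, with a 95% interval of 2.21 to 3.70 that covers counting error only. With control 3 in the fit the call was lost (log2 fold change 1.91, adjusted p = 0.152), and adjusted p ranged from 0.000803 to 0.170 over all alternatives.

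DUSP6, the cytoplasmic phosphatase most selective for ERK, had 22.7, 14.6 and 1.13 CPM in control 1, 2 and 3, and 6.96, 6.54 and 16.6 CPM in knockdown 1, 2 and 3. Knockdown 1 and 2 were below control 1 and 2 and above control 3, so the groups overlapped once number 3 was included. DUSP6 was 2.78-fold lower in knockdown 1 and 2 than in control 1 and 2 (log2 fold change -1.47, SE 0.272, edgeR adjusted p = 0.0469). Control 3 lay 16.6-fold below the mean of control 1 and 2, on 36 counts, and the call was lost with control 3 in the fit (log2 fold change -0.93, adjusted p = 0.682, against 0.000151 to 0.682 over all alternatives). Without control 3, the edgeR call was also lost with library size scaling (adjusted p = 0.0649) and without a filter on low counts (adjusted p = 0.0639). Of the longest DUSP6 transcript, 37.1% is shared with the GENCODE v29 gene AC024909.2, so reads of the pair could be mixed. The relative strand of the pair was not examined.

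DUSP5, the inducible nuclear phosphatase that acts on ERK, had 16.4, 15.5 and 13 CPM in control 1, 2 and 3, and 8.04, 9.82 and 13.3 CPM in knockdown 1, 2 and 3. Knockdown 1 and 2 were below all controls, but the log2 fold change of -0.84 (SE 0.174) did not pass the test (edgeR adjusted p = 0.0565). Its 100 nearest expressed genes were themselves lower in knockdown 1 and 2, by a median of -0.35 on the log2 scale, and against them the log2 fold change of DUSP5 was -0.50 (adjusted p = 0.172). DESeq2 called DUSP5 with a log2 fold change of -0.85 (adjusted p = 0.00251), and adjusted p ranged from 0.00251 to 0.246 over all alternatives.

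Together the 3 phosphatases summed to 11.4, 9.25 and 5.24 CPM per kb in control 1, 2 and 3, and to 5.08, 5.72 and 8.82 CPM per kb in knockdown 1, 2 and 3. DUSP4 made up 1.71% and 1.93% of that sum in control 1 and 2, and 9.96% and 9.60% in knockdown 1 and 2. DUSP5 was the largest share in all 6 libraries, from 55.1% to 94.5%. The share of DUSP6 was 43.2% in control 1 and 34% in control 2, 29.6% in knockdown 1 and 24.7% in knockdown 2, and 4.64% in control 3.

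Of the inhibitors upstream of ERK, SPRED1, which recruits neurofibromin to RAS, had 25.4, 23.8 and 24.2 CPM in control 1, 2 and 3, and 37.8, 38 and 22.2 CPM in knockdown 1, 2 and 3. Knockdown 1 and 2 were above all controls, and the library labelled knockdown 3 was below all of them. SPRED1 rose 1.53-fold in knockdown 1 and 2 (log2 fold change 0.62, SE 0.113, edgeR adjusted p = 0.0464). The call was lost without a filter on low counts (adjusted p = 0.0683) and with control 3 in the fit (adjusted p = 0.0754), and adjusted p ranged from 0.000613 to 0.223 over all alternatives.

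SPRED2, its paralog, had 69.8, 78.2 and 60.9 CPM in the controls and 95, 90.4 and 76.7 CPM in the knockdown libraries. Its log2 fold change in knockdown 1 and 2 was 0.32 (95% interval 0.01 to 0.62, edgeR adjusted p = 0.142). The Sprouty proteins, which limit RAS activation downstream of receptor tyrosine kinases, gave no call either. SPRY2 had 119, 162 and 122 CPM in the controls and 161, 164 and 166 CPM in the knockdown libraries, so that control 2 lay among the latter. Its log2 fold change was 0.20 (95% interval -0.31 to 0.71, edgeR adjusted p = 0.510) and was -0.01 without control 1. SPRY4, the most abundant of the 10 per length in control 1 and 2, had 383, 371 and 297 CPM in the controls and 255, 324 and 305 CPM in the knockdown libraries.

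The log2 fold change of SPRY4 was -0.39 (95% interval -0.78 to 0.00, edgeR adjusted p = 0.151). Its 100 nearest expressed genes had medians of -0.36 and -0.35 in knockdown 1 and 2 and -0.37 in control 3, on the log2 scale against control 1 and 2. Against those neighbours the log2 fold change of SPRY4 was -0.02. SPRY4-AS1, its antisense gene, was at 2.57 to 3.60 CPM in the controls and at 4.36 to 5.58 CPM in the knockdown libraries. It was not called in knockdown 1 and 2 (log2 fold change 0.81, edgeR adjusted p = 0.121).

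Of the PEA3 factors, ETV1 was nearly absent from knockdown 1 and 2. It had 505, 454 and 320 counts in control 1, 2 and 3, and 6, 4 and 699 counts in knockdown 1, 2 and 3. In CPM these were 17.8, 16.4 and 10 in the controls and 0.166, 0.0852 and 16.4 in the knockdown libraries. Both low values were far below every control, and the library labelled knockdown 3 was level with control 2. The ratio of the counts of control 1 and 2 to those of knockdown 1 and 2 was 142 (95% interval 76.8 to 297, counting error only), and edgeR gave a log2 fold change of -7.09 (SE 0.370, adjusted p = 0.0118). RNA was taken from whole cultures, in which fewer cells with ETV1 mRNA and less of it per cell cannot be told apart. No exact match of 50 bases or more linked the longest ETV1 transcript to another gene.

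ETV4 had 77.9, 77.1 and 85.2 CPM in control 1, 2 and 3, and 112, 116 and 77.0 CPM in knockdown 1, 2 and 3. Knockdown 1 and 2 were above all controls, and the library labelled knockdown 3 was just below them. ETV4 rose 1.46-fold in knockdown 1 and 2 (log2 fold change 0.55, SE 0.0842, edgeR adjusted p = 0.0355). The call was lost without a filter on low counts (adjusted p = 0.0532) and with control 3 in the fit (adjusted p = 0.0791), and adjusted p ranged from 0.000147 to 0.184 over all alternatives. ETV5 had 168, 171 and 170 CPM in the controls and 153, 157 and 173 CPM in the knockdown libraries. Its log2 fold change of -0.13 (95% interval -0.36 to 0.09) did not pass (edgeR adjusted p = 0.330), and its direction turned with the scaling, at 0.00 by library size and 0.16 against its 100 nearest genes. Of its longest transcript, 4.01% is shared with the neighbouring gene DGKG.

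ETV1 was a small part of the PEA3 sum in every library. That sum was 52.4, 52.5 and 53.9 CPM per kb in control 1, 2 and 3, and 57.4, 59.3 and 52.8 CPM per kb in knockdown 1, 2 and 3. The ETV1 share went from 3.52% and 3.24% in control 1 and 2 to 0.030% and 0.015% in knockdown 1 and 2, and the ETV4 share from 41.2% and 40.7% to 54.0% and 54.3%. ETV5 held 55.3% and 56.1% in control 1 and 2 and 46.0% and 45.7% in knockdown 1 and 2.

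**Figure D2:**
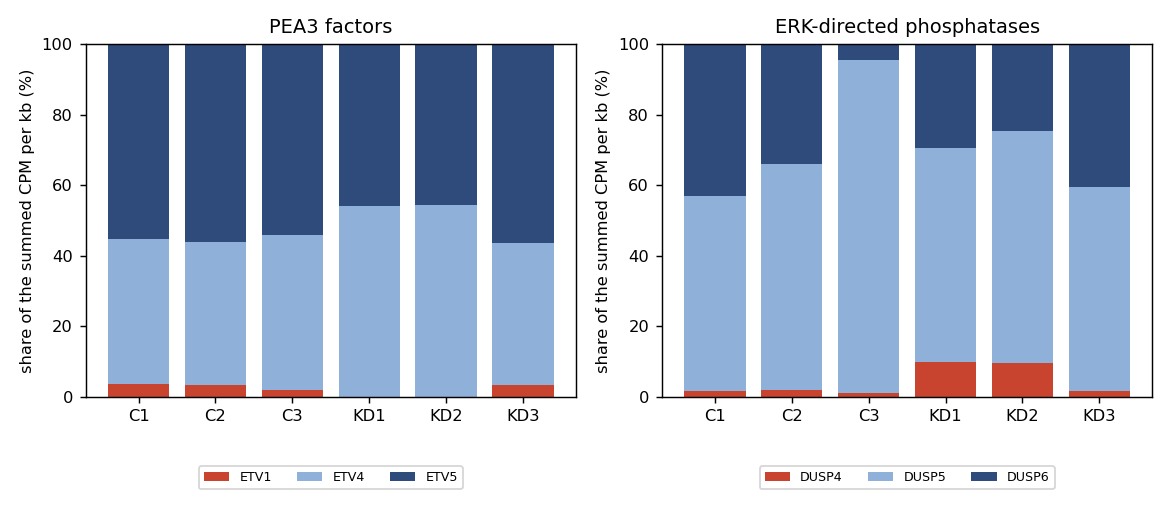
Share of each gene in the summed CPM per kb of its family (%), 1 stacked bar per library, for the PEA3 factors on the left and the phosphatases on the right. ETV4 passes ETV5 only in knockdown 1 and 2, at 54.0% and 54.3%, and DUSP5 takes up 94.5% of the phosphatases in control 3.

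Since genes of 1 region can move together, each gene was also tested against its 100 nearest expressed genes. In that fit 2 of the 10 were called, against 8.58% of all genes, DUSP4 (log2 fold change 1.30, edgeR adjusted p = 0.0449) and ETV1 (log2 fold change -7.24, adjusted p = 0.0129). The other 3 kept their direction and missed the threshold, DUSP6 at -1.60 (adjusted p = 0.0506), SPRED1 at 0.58 (adjusted p = 0.0630) and ETV4 at 0.47 (adjusted p = 0.0540).

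**Figure D3:**
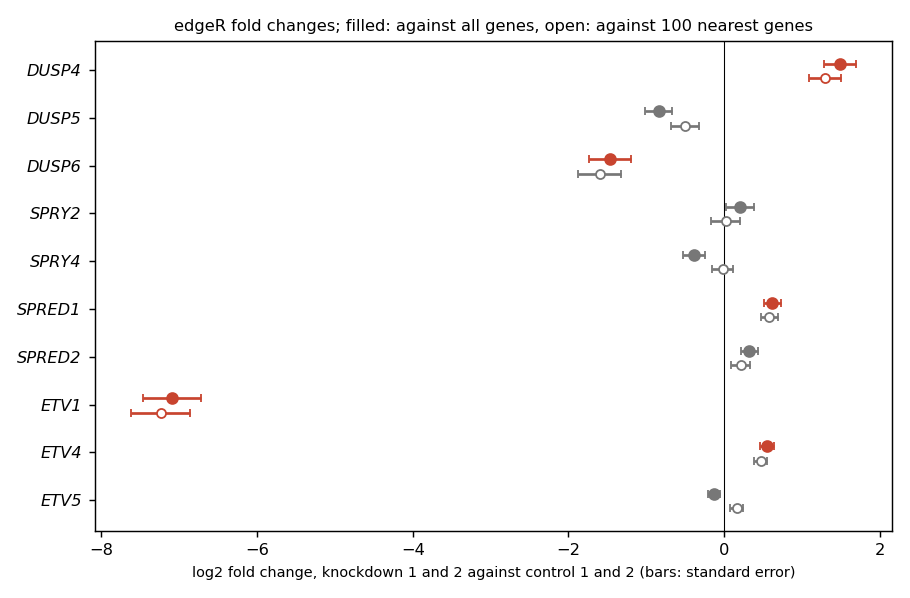
edgeR log2 fold change of knockdown 1 and 2 against control 1 and 2, with bars of 1 standard error, red where adjusted p is under 0.05. Filled points are set against all genes and open points against the 100 nearest genes, where DUSP4 at 1.30 and ETV1 at -7.24 remain red.

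With all 6 libraries in the fit, edgeR called 0 of the 10 genes, with 0 at an unadjusted p under 0.05, and 0.0065% of all genes. The edgeR adjusted p of the 10 ran from 0.581 to 0.903. DESeq2 called 0 of the 10, with no adjusted p for ETV1, and 192 of all genes. In limma-voom 0 of the 10 and 0 of all genes were called. Without the library labelled knockdown 3, ETV1 was the 1 of the 10 that was called, against 4.42% of all genes.

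The effect at number 3 minus that at numbers 1 and 2 passed edgeR's interaction test for DUSP6 and ETV1, 2 of the 10, against 4.54% of all genes. The single libraries of number 3 are assumed there to vary like the others. For ETV1 the difference was 7.80 (SE 0.535, adjusted p = 0.0250), and the library labelled knockdown 3 was 1.64 times control 3. For DUSP6 it was 5.34 (SE 0.518, adjusted p = 0.0355), where control 3 was low and the library labelled knockdown 3 was 14.7 times control 3. ETV4 at -0.70 (adjusted p = 0.0811), SPRED1 at -0.75 (adjusted p = 0.114) and DUSP4 at 0.17 (adjusted p = 0.85) did not pass. Against the mean of control 1 and 2, the 10 genes lay between -0.31 and 0.24 in the library labelled knockdown 3, and between -3.56 and 0.14 in control 3, as log2 ratios with 0.5 CPM added. Neither call held when any 1 of control 1, control 2, knockdown 1 or knockdown 2 was left out. That leaves 1 group with a single library at numbers 1 and 2, so the loss cannot show that the differences are unstable. The differences then ranged from 7.36 to 8.3 for ETV1 and from 5 to 5.64 for DUSP6. With the number as a block edgeR gave an adjusted p of 0.0955 for each, and 0 of all genes were called.

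**Figure D4:**
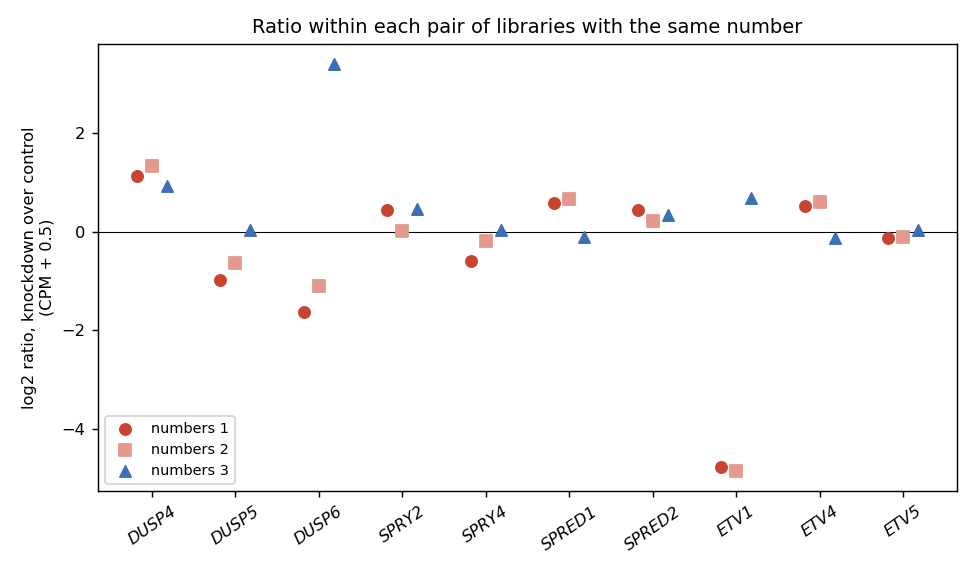
Log2 ratio of knockdown over control within each number, with 0.5 CPM added, 1 point per pair of libraries. DUSP6 is at 3.39 for number 3 and at -1.10 for number 2, and ETV1 is at -4.85 for number 2 and at 0.68 for number 3.

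The genes closest in profile to each called gene were found by the root mean square difference of centred log2 CPM over the 6 libraries, among the 10663 genes whose mean reached 5 CPM. For ETV1 they were ALDH1A1 (0.19), WT1 (0.20) and GSTM2 (0.24). ALDH1A1, an aldehyde dehydrogenase that makes retinoic acid, had 1590, 1360 and 1070 CPM in the controls and 16.7, 14.8 and 1340 CPM in the knockdown libraries. For DUSP6 they were ROR1 (0.32), SLC9A3 (0.33) and ZNF32 (0.34), all lowest in control 3. As the genes were chosen by their profile, this shared feature follows from the choice. For DUSP4 they included IGSF3 (0.16) and CARMIL1 (0.19). SPRED1 was closest to HTRA1 (0.05), SC5D (0.05) and OTUD6B (0.06), and ETV4 to MAP3K20 (0.03), CYTH3 (0.03) and ADAL (0.04).

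The rest of the pathway was read from lists in the same comparison of knockdown 1 and 2 with control 1 and 2. Of all genes tested there, 7.15% rose and 6.41% fell, and the median log2 fold change was 0.01. Of 6 tested other dual-specificity phosphatases and 9 other Sprouty, SPRED and RAS inhibitors, 0 were called, with median log2 fold changes of 0.29 and 0.13. Of the 5 tested ETS repressors and CIC, 0 were called. Of 16 genes of the cascade itself, 0 rose and 3 fell, and the median was -0.14. ARAF, a RAF kinase, had 119, 131 and 90.0 CPM in the controls and 2.29, 5.67 and 67.3 CPM in the knockdown libraries (log2 fold change -4.97, edgeR adjusted p = 0.0226). The scaffold KSR1 also fell (-2.06, adjusted p = 0.0370), with 9.64, 8.68 and 1.56 CPM in the controls and 2.76, 1.66 and 0.727 CPM in the knockdown libraries, so that control 3 lay below knockdown 1 and 2. SHOC2, which helps activate RAF, fell as well (-0.60, adjusted p = 0.0374), but not against its 100 nearest genes (adjusted p = 0.177).

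Of 16 tested other ERK output genes, 4 rose and 1 fell, with a median of 0.61 against 0.01 over all genes. The EGF receptor ligand AREG (1.65, edgeR adjusted p = 0.0276) and the AP-1 subunit FOS (1.45, adjusted p = 0.0291) rose, and the ligand HBEGF fell (-1.06, adjusted p = 0.0305). In the library labelled knockdown 3, AREG was at 39.8, FOS at 2.09 and HBEGF at 17.9 CPM. The controls ranged from 31.4 to 44.2, from 2.52 to 2.78 and from 17.2 to 19 CPM in turn. EREG, another EGF receptor ligand, also rose (0.50, adjusted p = 0.0401) and was named after its value was seen. Of 10 other ETS factors tested, ELF2 rose (0.81, adjusted p = 0.0451), ETS1 fell (-1.60, adjusted p = 0.0187), and EHF, at 0 counts in knockdown 1 and 2, was at least 231-fold lower, taking 3 counts over the knockdown group as the floor (adjusted p = 0.0268). Against their 100 nearest genes HBEGF (adjusted p = 0.0701), EREG (adjusted p = 0.0547) and ELF2 (adjusted p = 0.0697) lost their calls. With the number as a block 0 genes of these lists were called.

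**Figure D5:**
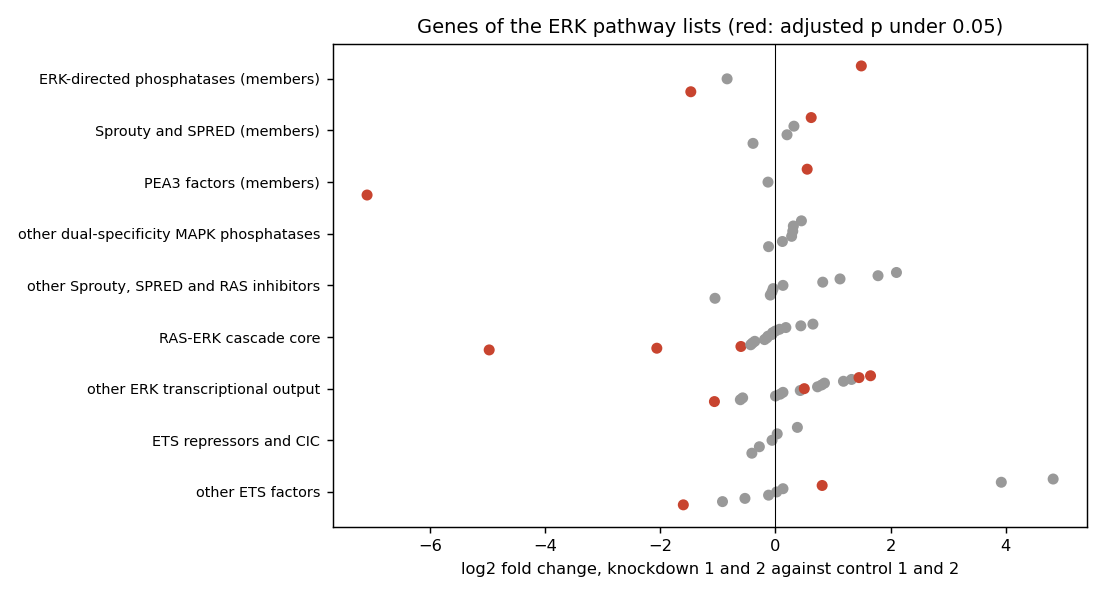
edgeR log2 fold change of each tested gene of the pathway lists, 1 point per gene, red where adjusted p is under 0.05. Genes at 0 counts in 1 group, such as EHF, are not drawn, and ETV1 at -7.09 and ARAF at -4.97 lie farthest to the left.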

How the data were processed

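Bulk RNA-seq libraries (TruSeq) were compared. The authors made the deposited counts, whole numbers per gene, with FastQC, STAR and StringTie, with versions, genome build, annotation and strand setting not given in the sources used here. Of 42540 rows, 17321 were at 0 in all libraries, and 159 second copies of a row were left out. The test was the quasi-likelihood F test of edgeR 4.0.16 (R 4.3.3), after filterByExpr and TMM, with Benjamini-Hochberg adjustment at 0.05. DESeq2 1.42.0, limma-voom (limma 3.58.1), library size scaling, no filter, a replicate block, an offset from the 100 nearest genes and each library left out were alternatives. Lengths are exon unions of GENCODE v29. Named are the 10 genes, PPP2R1A, up to 4 called genes per list and 3 genes closest in profile. The results of some genes that meet this rule are not reported here. Library names and the study's 3 weeks pair libraries of the same number. Their departures from the group means, which include number 3, had correlations of -0.0182, -0.0324 and -0.122 for numbers 1, 2 and 3. The difference between number 1 and number 2 had a correlation of 0.0621 between the groups. The genes and lists were chosen with earlier results of these data known. Library totals of 28499214 to 45040033 counts set the counting error.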

Additional observations from a re-analysis of the deposited data

Results flagged for a closer look

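The difference between the effect at number 3 and that at numbers 1 and 2 passed edgeR's interaction test for ETV1, at 7.80 on the log2 scale, with 0.166, 0.0852 and 16.4 CPM in knockdown 1, 2 and 3. It also passed for DUSP6, at 5.34 on the log2 scale, with 22.7, 14.6 and 1.13 CPM in control 1, 2 and 3. Number 3 has 1 library per group, assumed to vary like the others. Both calls were lost with each of control 1, control 2, knockdown 1 and knockdown 2 left out. That leaves 1 group with a single library at numbers 1 and 2, so the loss cannot show that the differences are unstable. The differences then ranged from 7.36 to 8.3 for ETV1 and from 5 to 5.64 for DUSP6. Both calls were also lost with the number as a block (edgeR adjusted p = 0.0955 for each), where 0 of all genes were called.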

How the results depend on the processing

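Of the 10 genes, 5 were called in numbers 1 and 2, and this became 2 without a filter, 2 against the 100 nearest genes, 1 when only the library labelled knockdown 3 was left out, and 0 with each library left out in turn. DESeq2 called 6, limma-voom 5 and library size scaling 4. Over all genes the 2114 calls became 3700 with DESeq2, 1380 without a filter, 1327 against the nearest genes and 704 when only the library labelled knockdown 3 was left out. Of the pathway lists 11 genes were called, 13 with library size scaling and 8 against the 100 nearest genes. Alternatives chosen after seeing the data gave 18 with DESeq2, 11 with limma-voom, 8 without a filter and 6 when only the library labelled knockdown 3 was left out. The calls were lost with each library left out in turn, which leaves a single library in a group. With all libraries 0 of the 10 were called, and 0 to 1 with each left out. The 2 interaction calls were lost with each library of numbers 1 and 2 left out, which again leaves a single library in a group. The differences then ranged from 7.36 to 8.3 for ETV1 and from 5 to 5.64 for DUSP6. The 699 interaction calls over all genes became 2334 with DESeq2 and 378 without a filter. With the replicate block in numbers 1 and 2, edgeR called 0 of the 10 (6 at an unadjusted p under 0.05) and 0 of the lists. Of all genes it called 0 there, with 5162 at an unadjusted p under 0.05. In the interaction with that block it called 0 of the 10 and 0 of all genes, with 4 and 4508 at an unadjusted p under 0.05. Directions turned for ETV5 (0.00 by library size and 0.16 against the nearest genes; 0.05 by library size with all libraries), SPRY2 (-0.01 to 0.45 with each library left out, -0.01 without control 1), DUSP6 with all libraries (0.38 by limma-voom, and -0.93 to 0.35 with each library left out, 0.35 without control 1) and the SPRED2 interaction (-0.01 by library size, -0.01 without a filter, and -0.07 to 0.10 with each library left out, -0.07 without control 2 and -0.03 without knockdown 2). Except where a setting leaves out libraries or genes, the cause was not tested. Depth limits DUSP4, with 11 to 187 counts per library, and ETV1, with 6 and 4 counts in knockdown 1 and 2.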
